A study of Homo sapiens with 16 samples.

Results

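The data described here cover 10 receptor tyrosine kinases of BRAF inhibitor resistance, namely AXL, EGFR, ERBB2, ERBB3, PDGFRA, PDGFRB, MET, IGF1R, FGFR1 and EPHA2, among the 23260 genes of an expression table from melanoma xenografts. The members were taken from the table by gene symbol, as receptors known from resistance of melanoma to BRAF inhibitors. A375 is a human melanoma cell line with a mutant BRAF kinase, and its cells were grown as tumors in both flanks of NOG mice, an immunodeficient strain (NOD/Scid/IL2γR-/-). JQ1 (J) is an inhibitor of BET bromodomain proteins, which read acetylated histones, and Vemurafenib (V) is an inhibitor of the mutant BRAF kinase. The 16 tumors fell into 4 groups of 4, each from 2 mice: J+V (mice 33 and 34), J (mice 26 and 29), V (mice 16 and 19) and vehicle control (mice 2 and 5). Drugs were given into the peritoneum, JQ1 at 50 mg/kg once a day and Vemurafenib at 25 mg/kg per dose in 2 doses a day, and the tumors were taken on day 5. All groups share 1 cell line and 1 host strain, both tumors of a mouse share that animal, and the tumors are named here by mouse and flank (33L is the left tumor of mouse 33).

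A receptor tyrosine kinase binds a growth factor outside the cell, pairs with another receptor, and phosphorylates tyrosines on its own tail. Adaptor proteins then dock there and pass the signal to the RAS-MAPK and PI3K-AKT pathways. In melanoma cells under BRAF inhibition, receptors of this family are known to restore signalling in parallel to or upstream of the blocked kinase. AXL, EGFR and PDGFRB are known from dedifferentiated, drug-tolerant melanoma cells, while ERBB3 is a receptor of the neural crest and melanocyte lineage that is known to be induced when the MAPK pathway is inhibited. The question put to the data was how the mRNA of each receptor differed between the combination, each single drug and vehicle.

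Levels are given as FPKM, the fragments of a gene scaled to transcript length and to the mapped fragments of the library, as deposited by the authors. Differences are log2 fold changes of FPKM plus a pseudocount of 0.5, each with its standard error (SE) from 1 limma fit over the 13426 genes that reached 1 FPKM in 4 or more tumors. A gene was called where its Benjamini-Hochberg adjusted p, taken over all of these genes, was below 0.05. All 10 receptors passed the filter, and each was at 1 FPKM or more in all 16 tumors. The number of sequenced reads is unknown, so no counting error can be given, and the sum of FPKM per tumor ran from 970443 to 1406990. The melanocyte markers bore out the label in part. SOX10, MITF, MLANA and S100B were present in every tumor, while the pigment enzyme gene DCT was listed at 0 in all 16 tumors and TYR and PMEL stayed below 1 FPKM. Endothelial markers were near 0, with sums of 0.697 to 1.64 FPKM over 5 genes per tumor. These are bulk samples, in which fewer cells of a kind and less RNA per cell cannot be told apart, and the sources used here do not state a removal of mouse reads.

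Over the 16 tumors the mean level was highest for MET (28.9 FPKM) and ERBB3 (21.3 FPKM), but the order differed between groups. In J+V ERBB3 led at 38.9 FPKM, with MET at 17.95 FPKM. In J it stood at 14.9 FPKM, below MET (38.4 FPKM) and AXL (21.02 FPKM), and in control at 14.7 FPKM, below MET (32.7 FPKM), AXL (19.4 FPKM) and FGFR1 (15.02 FPKM). Over all tumors AXL, FGFR1 and IGF1R followed at 14.4, 13.1 and 12.6 FPKM, and their ranges over the tumors overlapped. EPHA2 averaged 7.58 FPKM, and PDGFRB, ERBB2, EGFR and PDGFRA lay lowest, at 4.53, 4.21, 3.67 and 3.32 FPKM. As a ratio of highest to lowest tumor, the widest spread was that of EPHA2, which ran from 1.43 to 14.03 FPKM, and the narrowest that of FGFR1, which ran from 10.6 to 20.6 FPKM.

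**Figure D1:**
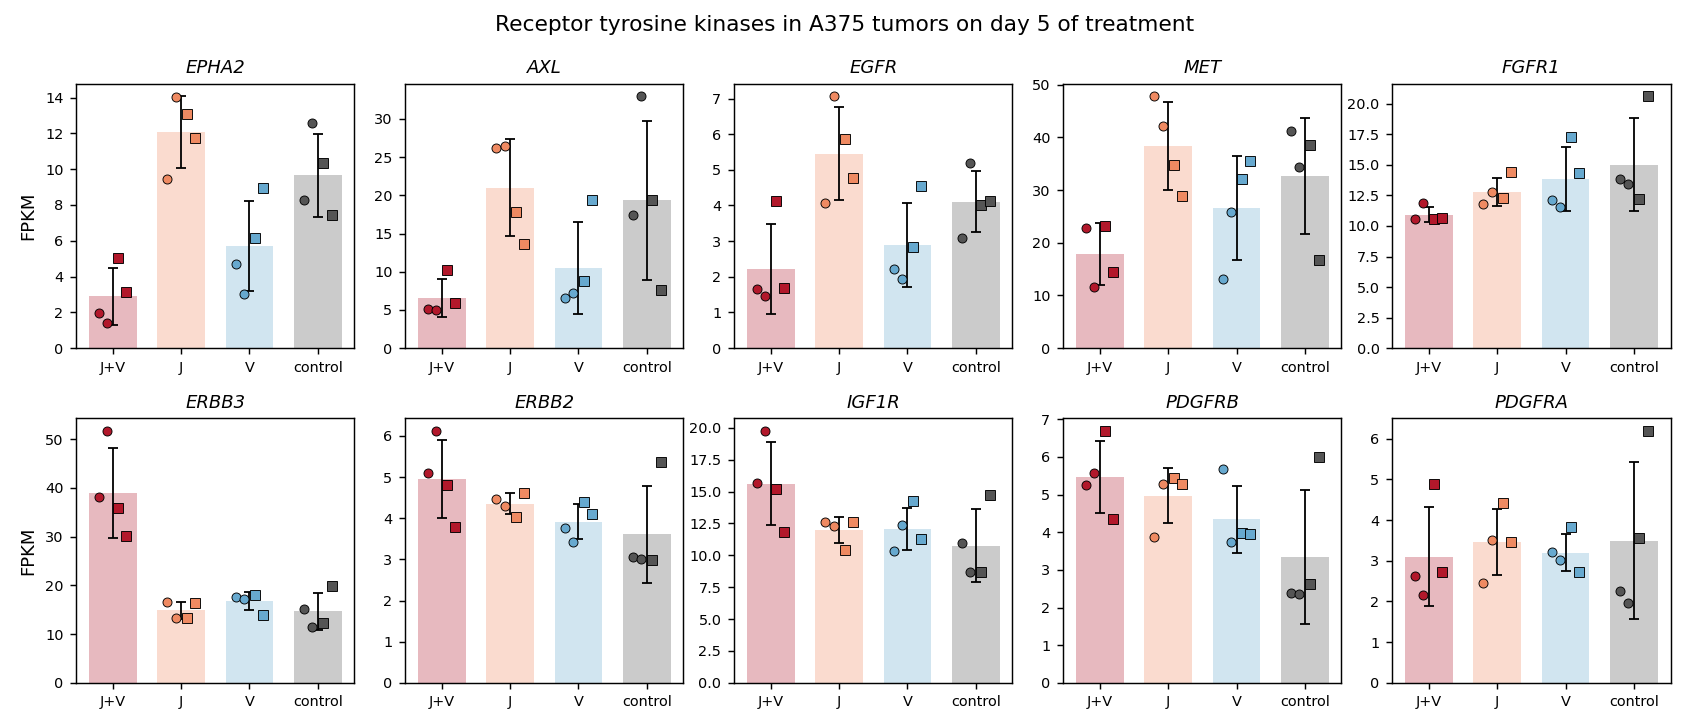
FPKM of the 10 receptors in each tumor, by treatment group (J+V, J, V and control, left to right), with bars for the group mean, error bars for the SD over 4 tumors, and a marker shape (circle or square) for each of both mice. ERBB3 lies between 30.03 and 51.7 FPKM in the J+V tumors and at most at 19.9 FPKM in the other 12, and EPHA2 is lowest in J+V, with a mean of 2.89 FPKM against 9.65 FPKM in control.

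In J+V against control, 8 of the 10 receptors were called, 4 higher and 4 lower. Among all genes tested, 37.1% were called in this comparison, 16.6% higher and 20.5% lower, so that calls were common in the whole table. ERBB3, PDGFRB, IGF1R and ERBB2 rose, and EPHA2, AXL, EGFR and FGFR1 fell, while MET and PDGFRA were not called. The median log2 fold change of the 10 receptors was -0.25, against -0.03 over all genes. Scaling every tumor to a common sum of FPKM moved the median of all genes to -0.22 and the split of calls from 2223 higher and 2756 lower genes to 816 higher and 4727 lower ones. Of the receptors, 6 were then called, with PDGFRB, IGF1R and ERBB2 no longer called and MET called lower. In J against control and in V against control no receptor was called, and 0% of all genes were.

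The promoters of the 4 receptors that were lower in J+V than in J are shown because these genes moved together in that comparison. Each line gives 250 bases upstream of the transcription start from RefSeq (GRCh38.p14), read 5′ to 3′ on the strand of the gene. Capitals mark matches on either strand to the GC box GGGCGG, the AP-1 motif TGANTCA, the E-box CACGTG or the TEAD motif GGAATG. The windows are chr1:16156070-16156319 (minus strand) for EPHA2, chr19:41218973-41219222 (plus strand) for AXL, chr7:55018767-55019016 (plus strand) for EGFR and chr7:116671946-116672195 (plus strand) for MET.
EPHA2: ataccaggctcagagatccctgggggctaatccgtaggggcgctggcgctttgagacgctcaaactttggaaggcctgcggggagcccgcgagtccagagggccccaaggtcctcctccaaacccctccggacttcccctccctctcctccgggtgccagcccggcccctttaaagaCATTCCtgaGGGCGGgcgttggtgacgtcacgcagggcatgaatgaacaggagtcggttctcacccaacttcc
AXL: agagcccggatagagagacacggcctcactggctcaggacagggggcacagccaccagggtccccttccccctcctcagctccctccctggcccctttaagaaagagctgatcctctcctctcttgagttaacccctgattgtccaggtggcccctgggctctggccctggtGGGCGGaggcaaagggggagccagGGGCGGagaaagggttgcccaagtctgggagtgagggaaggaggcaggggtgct
EGFR: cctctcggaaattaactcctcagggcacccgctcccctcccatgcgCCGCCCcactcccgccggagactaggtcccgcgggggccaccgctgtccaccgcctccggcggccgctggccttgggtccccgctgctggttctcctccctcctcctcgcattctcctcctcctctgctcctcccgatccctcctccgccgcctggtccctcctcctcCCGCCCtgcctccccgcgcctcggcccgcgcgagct
MET: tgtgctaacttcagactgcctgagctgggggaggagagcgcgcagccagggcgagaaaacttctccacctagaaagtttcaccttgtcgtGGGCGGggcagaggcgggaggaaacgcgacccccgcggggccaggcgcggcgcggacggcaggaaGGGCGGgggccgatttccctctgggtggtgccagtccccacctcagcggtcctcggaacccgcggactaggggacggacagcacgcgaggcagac
Every window held a GC box, 2 each in AXL, EGFR and MET and 1 in EPHA2, and 42.6% of all 35116 RefSeq promoter windows of this length held at least 1. EPHA2 also held 1 match to GGAATG, found in 11.9% of all windows. None of the 4 windows held TGANTCA, which 6.57% of all windows did, or CACGTG, which 6.34% did. RefSeq windows were matched for 8 of the 10 receptors, all but ERBB3 and FGFR1. Of the windows not shown, IGF1R held 2 GC boxes and PDGFRB 1. ERBB2 and PDGFRA held none, but 1 match each to TGANTCA. GC boxes are thus not particular to the 4 receptors shown. These matches describe the letters only.

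EPHA2, a receptor for membrane-bound ephrin-A ligands that is known to promote melanoma cell migration, fell furthest of the 10 (gene at chr1:16450832-16482564 on the minus strand of GRCh37). It stood at 1.96, 1.43, 5.05 and 3.12 FPKM in J+V tumors 33L, 33R, 34L and 34R, against 8.27, 12.6, 10.3 and 7.43 FPKM in control tumors 2L, 2R, 5L and 5R. All 4 J+V tumors lay below all 4 control tumors. The group means were 2.89 ± 1.60 FPKM in J+V and 9.65 ± 2.30 FPKM in control (SD, n = 4 each), a log2 fold change of -1.67 (SE 0.31, limma adjusted p = 0.00097). The tumors of mouse 33 averaged 1.69 FPKM and those of mouse 34 averaged 4.08 FPKM. The call remained under each of 34 alternative settings, with log2 fold changes of -2.19 to -1.15. Some of these settings left out tumors of a group not compared. They could not move the log2 fold change, only the shared spread, here and for the other receptors.

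AXL, the receptor of GAS6 and a known marker of dedifferentiated melanoma cells, also fell (chr19:41725128-41767671, plus strand). Its levels were 5.10, 4.98, 10.2 and 5.85 FPKM in the J+V tumors, against 17.4, 33.0, 19.4 and 7.65 FPKM in the control tumors. The groups overlapped through 2 tumors, 34L being the highest of J+V and 5R the lowest of control. J+V against control gave a log2 fold change of -1.39 (SE 0.39, limma adjusted p = 0.0124). The call was lost without all of mouse 33, at -1.10 with an adjusted p of 0.116, and also without mouse 2, without tumor 5L and on means per mouse. Over all alternatives the log2 fold change of AXL ran from -1.86 to -0.92.

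EGFR, the receptor of EGF, TGFA and HBEGF, fell by less (chr7:55086710-55279321, plus strand). It stood at 1.64, 1.45, 4.12 and 1.68 FPKM in the J+V tumors, against 3.09, 5.18, 4.02 and 4.14 FPKM in control. Tumors 33L, 33R and 34R lay below every control tumor, and 34L lay within the control range. The log2 fold change of -0.83 (SE 0.27) passed the test (limma adjusted p = 0.0233). It was -1.12 without tumor 34L (adjusted p = 0.0016) and -0.52 without mouse 33, where the call was lost (adjusted p = 0.228). The EGFR call was lost in 9 of 33 alternatives, namely on means per mouse, without tumor 2R, 5L, 33L, 33R or 34R, and without mouse 2, 5 or 33.

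FGFR1, a receptor of fibroblast growth factors, changed least among the receptors that fell (chr8:38257733-38326352, minus strand). Its 10.6, 11.8, 10.6 and 10.7 FPKM in the J+V tumors all lay below the 13.8, 13.4, 12.2 and 20.6 FPKM of the control tumors. This gave a log2 fold change of -0.41 (SE 0.14, limma adjusted p = 0.0319), and without control tumor 5R it was -0.26 and no longer called (adjusted p = 0.0919). The FGFR1 call was lost in 12 of 34 alternatives, among them upper quartile and quantile scaling, means per mouse, and leaving out tumor 33L, 34L or 34R.

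MET, the receptor of hepatocyte growth factor (HGF), missed the threshold in this comparison (chr7:116312250-116438431, plus strand). Its levels were 22.7, 11.53, 23.2 and 14.4 FPKM in the J+V tumors, against 41.2, 34.4, 38.6 and 16.7 FPKM in control. Only control tumor 5R lay within the J+V range. The log2 fold change was -0.83 (95% interval -1.51 to -0.15, limma adjusted p = 0.0543), and without tumor 5R it was -1.12, with an adjusted p of 0.0113. Among the 10 receptors, EPHA2, FGFR1 and ERBB3 had J+V and control tumors that did not overlap, against 29.3% of all genes tested.

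ERBB3, a receptor of neuregulins that signals through PI3K mainly by pairing with ERBB2, rose furthest (chr12:56470583-56497289, plus strand). It stood at 38.1, 51.7, 35.9 and 30.03 FPKM in J+V tumors 33L, 33R, 34L and 34R, against 15.0, 11.4, 12.3 and 19.9 FPKM in control tumors 2L, 2R, 5L and 5R. Every J+V tumor lay above every other tumor of the study. The means were 38.9 ± 9.14 FPKM in J+V and 14.7 ± 3.83 FPKM in control (SD, n = 4 each), a 2.61-fold difference (log2 fold change 1.38, SE 0.17, limma adjusted p = 5.5e-05). The call remained under all 34 alternatives, with log2 fold changes of 1.17 to 1.60 and adjusted p-values of 4.4e-05 to 0.0063.

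ERBB2, the partner of ERBB3 with no known ligand of its own, rose to a smaller degree (chr17:37844167-37886679, plus strand). Its levels were 5.09, 6.12, 4.82 and 3.80 FPKM in the J+V tumors, against 3.071, 3.0001, 2.993 and 5.36 FPKM in control. Control tumor 5R stood apart from the other 3 control tumors and lay within the J+V range. A log2 fold change of 0.43 was called (SE 0.16, limma adjusted p = 0.0419). This call was lost in 18 of 33 alternatives, and without tumor 5R the log2 fold change was 0.62 (adjusted p = 0.0016).

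IGF1R, the receptor of insulin-like growth factors, stood at 15.7, 19.8, 15.2 and 11.8 FPKM in the J+V tumors (chr15:99191768-99507759, plus strand). In the control tumors it stood at 10.99, 8.66, 8.66 and 14.7 FPKM. The groups overlapped only through J+V tumor 34R and control tumor 5R. IGF1R rose, with a log2 fold change of 0.53 (SE 0.16, limma adjusted p = 0.0192), and lost the call in 7 of 34 alternatives.

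PDGFRB, a receptor of platelet-derived growth factors that is also typical of fibroblasts and pericytes, rose as well (chr5:149493402-149535435, minus strand). Its levels were 5.24, 5.57, 6.69 and 4.36 FPKM in the J+V tumors, against 2.37, 2.35, 2.62 and 5.996 FPKM in control. The other 3 control tumors lay below every J+V tumor, while 5R lay within the J+V range. The log2 fold change was 0.72 (SE 0.22, limma adjusted p = 0.0192), and lost the call in 7 of 33 alternatives, such as without tumor 2R or 5L or without mouse 2, 33 or 34. Over these alternatives it ran from 0.39 (highest adjusted p = 0.180) to 1.05, and without tumor 5R it was 1.01 (adjusted p = 0.00033). Some stromal markers moved with it. The summed level of 7 fibroblast markers was 73.5, 63.2, 120.0 and 82.9 FPKM in the J+V tumors, against 44.4, 40.0, 45.4 and 123.5 FPKM in the control tumors, so that 5R was the highest control tumor in both measures. Of the 6 fibroblast markers tested, LUM and DCN were called higher in J+V (log2 fold changes 1.61 and 1.67), while COL3A1 (0.50), FAP (0.31), COL1A2 (0.16) and COL1A1 (-0.16) were not, and 37.1% of all genes were called. Of 3 pericyte and smooth muscle markers RGS5 and ACTA2 were called higher (1.29 and 0.44), while MCAM, which led their sum, was not called (-0.28). The tumors are human cells in a mouse host, and reads were aligned to the human genome. For these markers and PDGFRB, transcripts of A375 cells and mouse reads that aligned to human genes therefore cannot be told apart. The part of stromal cells in the PDGFRB difference was not tested.

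PDGFRA, the sister receptor of PDGFRB on chromosome 4 (chr4:55095447-55164412, plus strand), showed no called difference. It stood at 2.64, 2.17, 4.90 and 2.72 FPKM in the J+V tumors, against 2.26, 1.95, 3.57 and 6.19 FPKM in control. The highest tumor of each group, 34L and 5R, was also the one with the highest fibroblast sum of its group. The log2 fold change was -0.09 (95% interval -0.67 to 0.50, limma adjusted p = 0.828), and without tumor 5R it was 0.21.

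**Figure D2:**
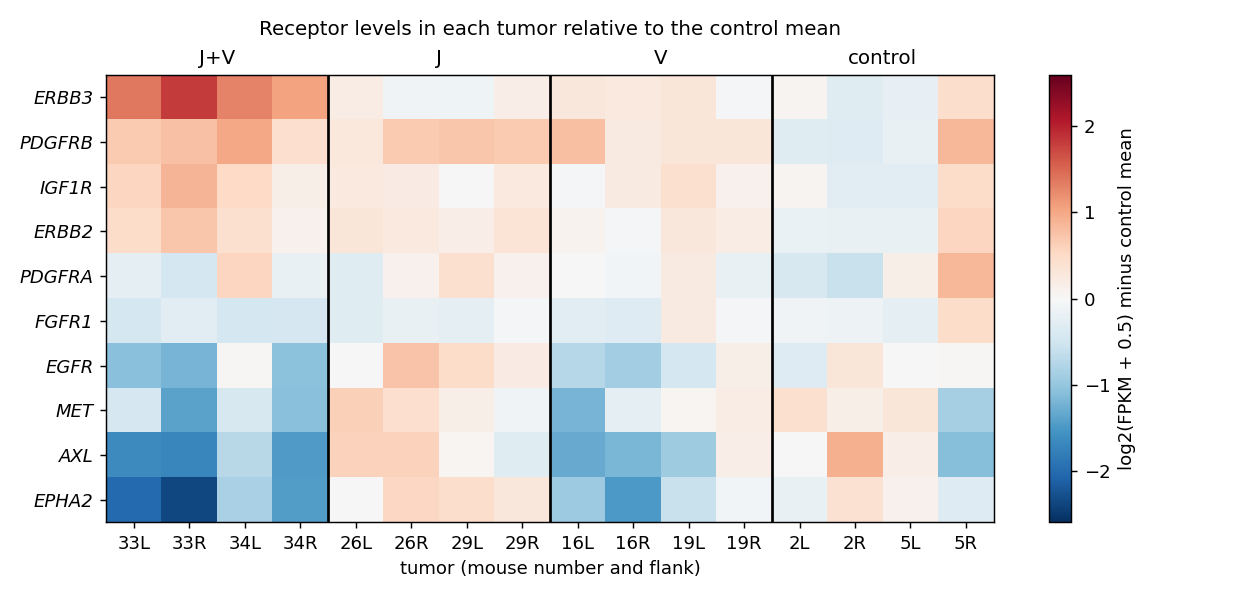
Level of each receptor (rows) in each tumor (columns, named by mouse and flank) as log2(FPKM + 0.5) minus the mean of the 4 control tumors, with red above and blue below that mean. ERBB3 is red in all 4 J+V tumors, EPHA2, AXL and MET are blue in them, and control tumor 5R is set off from the other control tumors by high PDGFRB, PDGFRA and ERBB2 and low AXL and MET.

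The combination was then set against each single drug. In J+V against J, 5 of the 10 receptors were called, 4 lower and 1 higher, where 27.0% of all genes were called, 18.4% lower and 8.67% higher. EPHA2, AXL, EGFR and MET fell and ERBB3 rose. In J+V against V only ERBB3 was called, where 13.3% of all genes were, 8.31% lower and 4.99% higher. On a common sum of FPKM the called genes were 2661 lower and 488 higher in J+V against J (2464 lower and 1164 higher as deposited), and 2654 lower and 235 higher in J+V against V (1116 lower and 670 higher as deposited). The J+V tumors enter all of these comparisons, so their results are not independent of each other or of J+V against control.

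EPHA2 had its largest difference here. In the J tumors 26L, 26R, 29L and 29R it stood at 9.43, 14.03, 13.1 and 11.8 FPKM, all above the J+V tumors, and J+V against J gave a log2 fold change of -1.995 (SE 0.31, limma adjusted p = 0.00060). In the V tumors 16L, 16R, 19L and 19R it stood at 4.71, 3.02, 6.15 and 8.94 FPKM, which overlapped J+V. J+V against V gave -0.90 (95% interval -1.56 to -0.24, adjusted p = 0.0672). It was called in 5 alternatives, without V tumor 16R, J+V tumor 34L, mouse 16 or mouse 34 and on a common sum of FPKM.

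AXL stood at 26.2, 26.4, 17.9 and 13.6 FPKM in the J tumors, all above the J+V tumors, and J+V against J gave a log2 fold change of -1.62 (SE 0.39, limma adjusted p = 0.0077). In the V tumors it stood at 6.59, 7.26, 8.83 and 19.4 FPKM, with 19R far above the others. J+V against V gave -0.57 (95% interval -1.41 to 0.26, adjusted p = 0.344). AXL and EGFR kept the call against J in all but 2 of their alternatives, both of which left out a whole mouse.

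EGFR stood at 4.08, 7.06, 5.87 and 4.78 FPKM in the J tumors, and only J+V tumor 34L, at 4.12 FPKM, reached into that range. J+V against J gave a log2 fold change of -1.20 (SE 0.27, limma adjusted p = 0.0050). In the V tumors EGFR stood at 2.21, 1.95, 2.83 and 4.56 FPKM, and J+V against V gave -0.35 (95% interval -0.92 to 0.22, adjusted p = 0.400).

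MET stood at 47.8, 42.1, 34.7 and 28.9 FPKM in the J tumors, all above the J+V tumors. J+V against J gave a log2 fold change of -1.11 (SE 0.32, limma adjusted p = 0.0198), which was no longer called in 8 of 34 alternatives, such as on means per mouse. In the V tumors MET stood at 13.1, 25.8, 32.1 and 35.5 FPKM, and J+V against V gave -0.52 (95% interval -1.21 to 0.16, adjusted p = 0.294).

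ERBB3 alone among the 10 receptors was called against both single drugs. It stood at 16.5, 13.4, 13.3 and 16.3 FPKM in the J tumors and at 17.7, 17.3, 18.01 and 13.95 FPKM in the V tumors. The lowest J+V tumor, 34R at 30.03 FPKM, lay above all of them. J+V against J gave a log2 fold change of 1.34 (SE 0.17, limma adjusted p = 0.00016) and J+V against V gave 1.17 (SE 0.17, adjusted p = 0.0011), and both calls remained under all 34 alternatives. J+V and J did not overlap for EPHA2, AXL, MET and ERBB3, where 35.1% of all genes did not, and J+V and V did not overlap for ERBB3, where 15.7% did not.

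The other 5 receptors were not called against either single drug. In J+V against J the log2 fold changes were 0.35 for IGF1R (95% interval 0.01 to 0.69), 0.15 for ERBB2 (-0.18 to 0.49), 0.12 for PDGFRB (-0.35 to 0.59), -0.17 for PDGFRA (-0.75 to 0.42) and -0.22 for FGFR1 (-0.52 to 0.08). In J+V against V they were 0.34 for IGF1R, 0.31 for PDGFRB, 0.29 for ERBB2, -0.08 for PDGFRA and -0.31 for FGFR1 (95% interval -0.61 to -0.01, limma adjusted p = 0.153). The intervals against V were -0.04 to 0.63 for ERBB2, -0.16 to 0.77 for PDGFRB and -0.67 to 0.50 for PDGFRA. Against both single drugs the intervals leave room for changes in either direction for ERBB2, PDGFRB and PDGFRA, and against J also for FGFR1.

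The levels of these 5 receptors under the single drugs lay close together. IGF1R stood at 12.6, 12.3, 10.4 and 12.6 FPKM in the J tumors and at 10.3, 12.4, 14.2 and 11.3 FPKM in the V tumors, all below the 3 highest J+V tumors. ERBB2 stood at 4.48, 4.30, 4.03 and 4.61 FPKM in the J tumors and at 3.76, 3.41, 4.398 and 4.10 FPKM in the V tumors. These values lay between most J+V tumors and the 3 lowest control tumors. FGFR1 stood at 11.8, 12.8, 12.3 and 14.4 FPKM in the J tumors and at 12.1, 11.6, 17.3 and 14.4 FPKM in the V tumors, and J+V tumor 33R reached into both ranges. PDGFRB stood at 5.68, 3.75, 3.98 and 3.94 FPKM in the V tumors, with 16L apart from the others. PDGFRA stood at 2.46, 3.4999, 4.43 and 3.46 FPKM in the J tumors and at 3.22, 3.03, 3.82 and 2.73 FPKM in the V tumors, within the range of the control tumors.

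**Figure D3:**
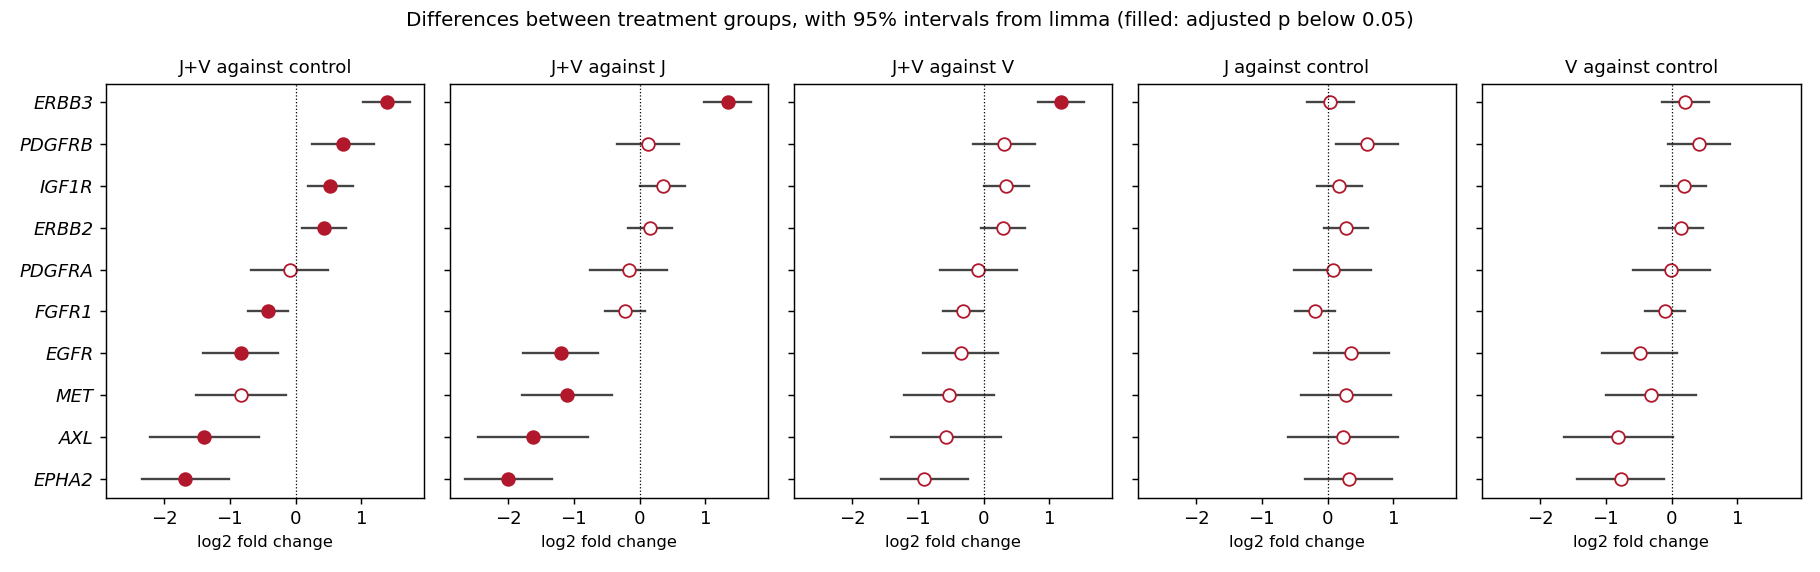
Log2 fold changes of FPKM plus 0.5 for the 10 receptors in 5 comparisons, with 95% intervals from limma and filled points where the adjusted p was below 0.05. ERBB3 is filled in all 3 comparisons of J+V, EPHA2, AXL and EGFR are filled against control and against J, and every point is open in J against control and V against control.

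The single drugs against control gave no called receptor. In J against control limma called 0 of 10 receptors and 0 of 13426 genes (0%), where 1140 genes, with PDGFRB as the only receptor among them, had an unadjusted p below 0.05. PDGFRB stood at 3.87, 5.29, 5.44 and 5.27 FPKM in the J tumors, above all control tumors but 5R, with a log2 fold change of 0.60 (95% interval 0.13 to 1.07, adjusted p = 0.453). Without tumor 5R it was called, at 0.88 with an adjusted p of 0.0193. The fibroblast sums of the J tumors, 60.5 to 79.3 FPKM, likewise lay above all control tumors but 5R, and their part in this difference was not tested. The other 9 receptors lay between -0.20 (FGFR1) and 0.36 (EGFR) in J against control, and their intervals included 0. The interval of AXL ran from -0.60 to 1.07 and that of EPHA2 from -0.34 to 0.98.

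In V against control limma called 0 of 10 receptors and 0 of 13426 genes (0%), where 2160 genes had an unadjusted p below 0.05. The lowest values were those of AXL, at -0.81 (95% interval -1.64 to 0.02, adjusted p = 0.324), and EPHA2, at -0.77 (-1.44 to -0.11, adjusted p = 0.245). EGFR followed at -0.48 (-1.05 to 0.08) and MET at -0.31 (-0.99 to 0.38). EPHA2 was the only receptor with an unadjusted p below 0.05. ERBB3 was at 0.21 (-0.15 to 0.56), and PDGFRB was at 0.41, or 0.70 and called without tumor 5R (adjusted p = 0.0335). Tumor 19R was the highest V tumor for AXL, EGFR, EPHA2 and MET, at 19.4, 4.56, 8.94 and 35.5 FPKM.

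Set directly against each other, J against V gave no called receptor either, where limma called 0.283% of all genes. EPHA2 stood at 9.43 to 14.03 FPKM in the J tumors and at 3.02 to 8.94 FPKM in the V tumors, with a log2 fold change of 1.10 (95% interval 0.44 to 1.76, adjusted p = 0.163). It was the 1 receptor of the 10 without overlap here, as were 5 of 16 other receptor tyrosine kinases tested. The share over all genes was not computed for J against V, so these counts cannot be set against the whole table. AXL was at 1.05 (0.22 to 1.88, adjusted p = 0.290) and EGFR at 0.85 (0.28 to 1.41, adjusted p = 0.216). These 3 had unadjusted p-values below 0.05 and the other 7 did not.

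Whether J+V differed from what the J and V differences add up to was tested as the interaction term of the same fit, called the departure here. No receptor and 0% of all genes were called, with 1693 genes at an unadjusted p below 0.05. The departure of ERBB3 was 1.13 on the log2 scale (95% interval 0.63 to 1.63, limma adjusted p = 0.0997) and that of EPHA2 was -1.22 (-2.16 to -0.29, adjusted p = 0.263), the only 2 receptors with an unadjusted p below 0.05. Tumor 34L bore on both. Without it ERBB3 was called, at 1.18 (adjusted p = 0.0422), and without mouse 34 both were, ERBB3 at 1.35 (adjusted p = 0.0103) and EPHA2 at -1.74 (adjusted p = 0.0328). In the other 31 of 33 alternatives no receptor was called for the departure. Leaving out mouse 33 instead weakened the departure of ERBB3 and EPHA2, and neither was called. Mouse 33 enters the departure only through J+V against control, while J against control and V against control kept their log2 fold changes. Without it, J+V against control went from 1.38 to 1.17 for ERBB3 and from -1.67 to -1.15 for EPHA2. These are values of J+V against control, not of the departure. For the other 8 receptors the departure lay between -0.81 (AXL) and 0.17 (IGF1R), with intervals that included 0.

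Control tumor 5R and J+V tumor 34L recur in these values. Tumor 34L had the highest level of its group for AXL, EGFR, EPHA2, MET, PDGFRA and PDGFRB. It also had the highest fibroblast sum and pericyte sum of its group, 120.0 and 60.8 FPKM. MCAM led the pericyte sum, and 3 of its 6 genes passed the filter, so this sum need not come from pericytes. Tumor 5R had the highest level of its group for ERBB2, ERBB3, FGFR1, IGF1R, PDGFRA and PDGFRB and the lowest for AXL, EPHA2 and MET, with a pericyte sum of 38.0 FPKM that was also the highest of its group. Leaving out 34L kept all but 2 of the 8 calls in J+V against control, ERBB2 and FGFR1 being lost, and added MET. Leaving out 5R lost only FGFR1 and added MET. Leaving out mouse 33 left only EPHA2 and ERBB3.

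A pair of gene groups was read as background on the drugs, with 37.1% of all genes called in J+V against control (16.6% higher, 20.5% lower). Among 13 known output genes of the MAPK pathway, all tested, 1 rose and 5 fell in J+V against control. In V against control limma called 0 of 13, where 0% of all genes were called. FOSL1, a subunit of the AP-1 transcription factor, stood at 8.01, 7.22, 19.4 and 13.1 FPKM in the J+V tumors, against 34.9, 59.5, 39.4 and 31.8 FPKM in control (log2 fold change -1.82, limma adjusted p = 0.00030). CCND1, the cyclin of G1 phase, fell by 0.83 on the log2 scale, IER3 by 0.59 and DUSP4 by 0.33, and SPRED1, an inhibitor of RAS signalling, rose by 0.31. DUSP6, a phosphatase of ERK, averaged 113 ± 22.4 FPKM in J+V, 99.5 ± 7.06 FPKM in V and 124 ± 18.1 FPKM in control (SD, n = 4 each) and was called in neither comparison (adjusted p = 0.358 and 0.239). Of 10 genes known to respond to BET inhibition, 9 were tested, and 1 rose and 4 fell in J+V against control. In J against control limma called 0 of 9, where 0% of all genes were called. IL7R fell by 1.97, HIST2H2BE by 0.78 and BRD2 by 0.44 on the log2 scale, FOSL1 is also on this list, and SERPINI1 rose by 0.54. These counts take no account of the direction known for each gene. In J against control the log2 fold changes were -0.001 (IL7R), 0.02 (HIST2H2BE), -0.18 (BRD2), 0.02 (FOSL1) and 0.37 (SERPINI1), none called. HEXIM1, which is known to rise under BET inhibition, averaged 11.3 ± 0.81 FPKM in J+V, 12.6 ± 1.14 FPKM in J and 12.4 ± 2.21 FPKM in control (SD, n = 4 each), with adjusted p-values of 0.437 in J+V and 0.963 in J against control.

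Of 33 ligand genes of the 10 receptors, 21 were tested, and 4 rose and 3 fell in J+V against control, with a median log2 fold change of 0.05. These 7 of 21 are no larger a share than the 37.1% called over all genes. HGF, the ligand of MET, rose furthest. It stood at 21.1, 23.9, 40.8 and 28.9 FPKM in the J+V tumors, against 9.32, 4.84, 7.68 and 6.77 FPKM in control, with no overlap. Its log2 fold change was 1.92 (limma adjusted p = 0.00058), and HGF was also called against J (1.14, adjusted p = 0.0199) and against V (1.13, adjusted p = 0.0355). In the J tumors HGF stood at 17.3, 14.2, 10.5 and 9.06 FPKM, and in the V tumors at 20.2, 19.8, 8.79 and 6.71 FPKM. HGF is typically made by fibroblasts, and the fibroblast sums given above for PDGFRB apply to it too, with 34L the highest J+V tumor in both. As for PDGFRB, transcripts of the human tumor cells and mouse reads aligned to the human gene cannot be told apart. Control tumor 5R, the highest in the fibroblast sum, was at 6.77 FPKM of HGF, near the control median.

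Among the ligands of the PDGF receptors, PDGFA and PDGFC fell and PDGFD rose. PDGFA stood at 0.152, 0.410, 1.06 and 0.9999 FPKM in the J+V tumors, against 2.29, 3.71, 2.40 and 2.07 FPKM in control (log2 fold change -1.49, limma adjusted p = 0.0013). The groups did not overlap, and the tumors of mouse 33 were lowest. PDGFC averaged 10.1 ± 1.78 FPKM in J+V and 15.6 ± 2.81 FPKM in control, and PDGFD averaged 4.64 ± 0.90 FPKM in J+V and 2.16 ± 0.30 FPKM in control (SD, n = 4 each), with log2 fold changes of -0.61 and 0.94. PDGFB did not pass the filter.

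HBEGF, a ligand of EGFR, fell to 2.35 ± 0.31 FPKM in J+V, against 3.85 ± 0.91 FPKM in control (SD, n = 4 each, log2 fold change -0.59, limma adjusted p = 0.0057). It was also the only ligand called between the single drugs, with 4.55 ± 0.70 FPKM in J and 2.05 ± 0.28 FPKM in V (SD, n = 4 each, log2 fold change 0.98, adjusted p = 0.0223). FGF1, a ligand of FGFR1, rose by 0.83, and EFNA1, a ligand of EPHA2, rose by 0.55 on the log2 scale, a call of EFNA1 that remained in 10 of 33 alternatives. NRG1, a ligand of ERBB3 that is named here after its values were seen, stood at 0.477, 0.715, 2.25 and 0.406 FPKM in the J+V tumors, against 1.37, 10.6, 3.01 and 0.352 FPKM in control, with a wide spread and no call (log2 fold change -1.10, adjusted p = 0.123).

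**Figure D4:**
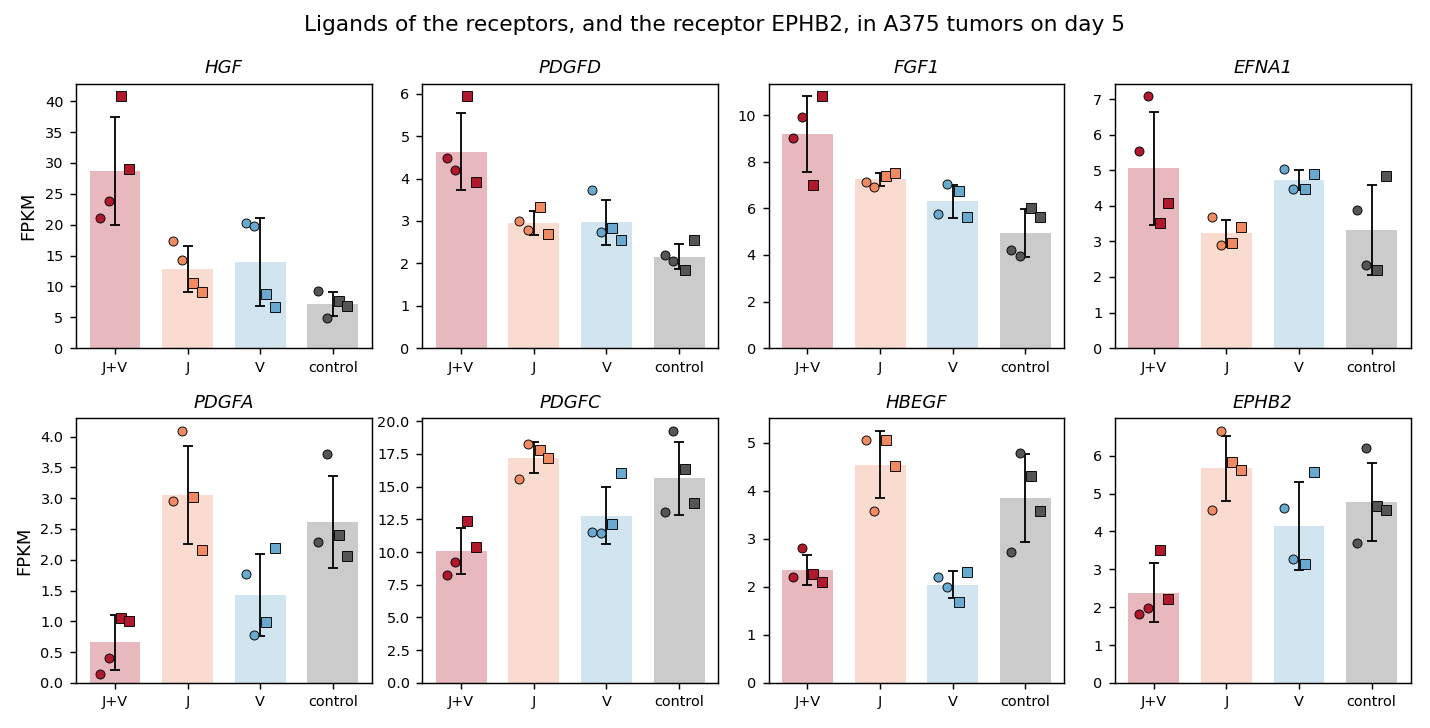
FPKM of 7 ligands of the receptors and of the receptor EPHB2 in each tumor, by treatment group (J+V, J, V and control, left to right), with bars for the mean, error bars for the SD over 4 tumors, and a marker shape (circle or square) for each of both mice. HGF lies between 21.1 and 40.8 FPKM in J+V and between 4.84 and 9.32 FPKM in control, and PDGFA is at most 1.06 FPKM in J+V and at least 2.07 FPKM in control.

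Other receptor tyrosine kinases were called about as often as the table as a whole (37.1%). Of 48 further receptors in the table, 16 passed the filter, and 4 rose and 2 fell in J+V against control, with a median log2 fold change of 0.11. EPHB2, a receptor of ephrin-B ligands, fell, with 1.83, 1.98, 3.51 and 2.23 FPKM in the J+V tumors, against 3.70, 6.20, 4.68 and 4.57 FPKM in control (log2 fold change -0.89, limma adjusted p = 0.0026). It also fell against J (-1.12) and against V (-0.69). EPHA7 fell by 0.59, a call that remained in 26 of 34 alternatives. EPHA3, the most abundant of those called, averaged 67.2 ± 3.89 FPKM in J+V and 50.6 ± 8.42 FPKM in control (SD, n = 4 each) and rose by 0.42 on the log2 scale. DDR1 and DDR2, the collagen receptors, rose by 0.64 and 0.34, with the call of DDR1 kept in all 34 alternatives and that of DDR2 in 26 of 34 (log2 fold change down to 0.13). INSR, the insulin receptor and closest relative of IGF1R, rose by 0.53. Among the 32 receptors that did not pass the filter were KIT, KDR, ERBB4 and MERTK.

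Adaptors that dock on activated receptors were tested for 17 of 18 genes, and 3 rose and 5 fell in J+V against control, where 16.6% of all genes were called higher and 20.5% lower. GRB2, which links receptors to the RAS activator SOS1, averaged 14.2 ± 0.54 FPKM in J+V and 19.3 ± 1.98 FPKM in control (SD, n = 4 each, log2 fold change -0.42, limma adjusted p = 0.00087). CRKL fell by 0.57, IRS1, the docking protein of IGF1R and INSR, by 0.45, and VAV2 by 0.40. SHC1 rose by 0.42, FRS2, the docking protein of FGF receptors, by 0.31 and SOS1 by 0.28.

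Negative regulators and shedding proteases of the receptors were tested for 22 of 23 genes, and 2 rose and 4 fell in J+V against control, a smaller share than the 37.1% called over all genes. SH2B3, an adaptor that dampens receptor signalling, stood at 30.1, 28.9, 33.8 and 34.3 FPKM in the J+V tumors, against 65.3, 56.7, 68.8 and 79.7 FPKM in control, with no overlap (log2 fold change -1.07, limma adjusted p = 3.1e-05). It was also called lower against J (-0.92) and against V (-0.78). SOCS2 fell by 0.80, GRB10 by 0.57 and PTPN1, a phosphatase of the insulin receptor and EGFR, by 0.45. CBLB, a ubiquitin ligase that marks activated receptors for degradation, rose to 23.5 ± 5.50 FPKM in J+V, against 12.04 ± 1.47 FPKM in control (SD, n = 4 each, log2 fold change 0.91, adjusted p = 0.00064). ADAM10, a protease that sheds receptors and ligands, rose by 0.28.

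None of these 4 lists had a called gene in J against control or V against control. No list could have had one, since 0 of 13426 genes (0%) were called in either comparison. The melanocyte markers, which share their lineage with ERBB3, were read beside it. Their summed level ran from 69.9 to 99.9 FPKM in the J+V tumors and from 34.3 to 50.9 FPKM in the control tumors, and S100B, which led the sum, rose with a log2 fold change of 1.68 (limma adjusted p = 4.8e-05), as did MLANA with 0.55. SOX10 and MITF were not called (log2 fold changes 0.38 and 0.23). In this comparison 37.1% of all genes were called. The part of these markers in the ERBB3 difference was not tested.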

How the data were processed

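Total RNA of 16 A375 tumors was depleted of ribosomal RNA (RiboZero) and made into ScriptSeq v2 libraries. Per the labels and the study's methods, the authors aligned reads with TopHat2 to hg19 and deposited FPKM values per gene from Cufflinks, which is normalized to the mapped fragments and transcript length. For exact tool versions, the annotation and any removal of mouse reads, the sources used here give nothing, and whole reads could not be recovered from the FPKM, so depth is unknown. Groups were taken from the treatment labels.

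The 13426 of 23260 genes that reached 1 FPKM in 4 or more tumors were fitted on log2(FPKM + 0.5). The fit used limma 3.58.1 in R 4.3.3 with a mean-variance trend and all 16 tumors (12 residual degrees of freedom). The mouse entered as a block through duplicateCorrelation. Its correlation was -0.0674, 1 value shared by all genes, and the block makes the tests slightly more liberal. Across all genes, tumors of 1 mouse were thus no more alike than others. Likeness within a mouse was not tested for single receptors, and the shared value makes no allowance for receptors where it is high. Tests were two-sided with Benjamini-Hochberg adjustment over all genes kept, called below 0.05. With 2 mice a group, the tests measure the spread between tumors more than that between animals. Alternatives were pseudocounts of 0.1 and 1, no filter, a filter at a mean of 5 FPKM, other scalings, no mouse block, means per mouse, only the groups compared, and leaving out each tumor or mouse. All 10 receptors are named, and of each other list up to 4 genes per direction called in J+V against control with a mean of at least 1 FPKM and the largest changes, plus DUSP6 and HEXIM1. The lists were other receptor tyrosine kinases, ligands, adaptors, negative regulators and shedding proteases, MAPK output, BET response, and markers of melanocytes, fibroblasts, pericytes and smooth muscle, endothelium, macrophages and leukocytes, and epithelium. The members and lists were chosen with earlier results of these data known. Promoters are from RefSeq and gene positions from GENCODE on GRCh37. Tables and figures were made with Python 3.11.15, pandas 2.3.3, numpy 2.4.6 and matplotlib 3.10.9.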

Additional observations from a re-analysis of the deposited data

Results flagged for a closer look

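In 8 of 40 groups of 4 tumors, 1 tumor stood far from the other 3 of its group. The measure was the gap to its nearest neighbour as a share of the group's range, both on log2(FPKM + 0.5) (Dixon's test at its 95% critical value). For independent groups about 1 in 20 would be flagged. The 40 groups share the same tumors across receptors, so the 8 cannot be set against that rate. ERBB2 was at 5.36 FPKM in control tumor 5R (0.957), and PDGFRB was at 5.996 FPKM in the same tumor (0.891). PDGFRB was also low in J tumor 26L, at 3.87 FPKM (0.909), and high in V tumor 16L, at 5.68 FPKM (0.858). FGFR1 was at 11.8 FPKM in J+V tumor 33R (0.908), within a narrow group range of 10.6 to 11.8 FPKM. EGFR was at 4.12 FPKM in J+V tumor 34L (0.872). IGF1R was at 10.4 FPKM in J tumor 29L (0.845), and ERBB3 was at 13.95 FPKM in V tumor 19R (0.835). The cause of these values was not tested.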

How the results depend on the processing

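The results were recomputed under up to 34 alternatives. For a comparison of 2 groups, those that left out a tumor or mouse of another group kept the log2 fold change fixed. They are thus weaker checks than the rest. ERBB3 kept its call in all of them in each of the 3 comparisons of J+V, and EPHA2 kept it against control and against J. The 8 receptors called in J+V against control became 4 on means per mouse, 4 with only the groups compared, and 2 to 9 when a tumor or mouse was left out. The count was 2 without mouse 33, 3 without mouse 2 or tumor 5L, 4 without tumor 2R and 5 without tumor 33L or 33R. It was 5 with a filter at a mean of 5 FPKM, which left EGFR, ERBB2 and PDGFRB (means 3.67, 4.21 and 4.53 FPKM) untested. The other 5 called receptors kept their call there. The 5 called in J+V against J ran from 2 (without mouse 33) to 6, with 3 without mouse 26 or 29. The 1 called in J+V against V was 3 on a common sum of FPKM and 1 to 2 in the leave-outs. In J against control and V against control the count ran from 0 to 1, and for the departure from 0 to 2. In J against V it stayed at 0. No paired analysis was possible because the tumors carry no numbers shared between groups. Without the mouse block as a term, 4598 genes were called in J+V against control, against 4979 with it.

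With a tumor or mouse left out, the sign changed for PDGFRA in J+V against control (-0.588 to 0.417), in J+V against J (-0.430 to 0.0968) and in J+V against V (-0.346 to 0.181), and for ERBB2 in J+V against J (-0.0204 to 0.327), none of them called. In the comparisons without a called receptor the sign changed in 17 of 336 fits for J against control, 13 of 336 for V against control, 18 of 326 for the departure and 10 of 336 for J against V. Calls in J+V against control ran from 3 to 13 for the other receptors, from 3 to 10 for the ligands, from 3 to 10 for the adaptors and from 5 to 9 for the negative regulators. The 13 came with no filter and the 3 of the ligands with the filter at a mean of 5 FPKM, settings that also change which genes are tested. Over all genes the count of calls ran from 2843 to 5543 in J+V against control, from 1136 to 4632 in J+V against J, from 234 to 2889 in J+V against V, from 0 to 101 in J against control, from 0 to 423 in V against control, from 0 to 363 for the departure and from 0 to 117 in J against V. Depth is unknown, each group has 2 mice, and PDGFRA, ERBB2, EGFR and PDGFRB lie at a few FPKM, where the pseudocount understates changes.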

Other observations

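Keratins gave a pair of values outside the comparisons above. Of 5 epithelial markers, 2 passed the filter, and both were called in J+V against control, where 37.1% of all genes were. KRT18 fell (log2 fold change -0.81, limma adjusted p = 0.00018) and KRT8, its usual filament partner, rose (log2 fold change 0.59, adjusted p = 0.0093). The summed level of the 5 markers ran from 47.3 to 57.1 FPKM in the J+V tumors and from 67.5 to 96.3 FPKM in the control tumors. Of 5 macrophage and leukocyte markers, 2 passed the filter and neither was called, with sums of 22.4 to 24.9 FPKM in the J+V tumors and 18.3 to 24.9 FPKM in the control tumors.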
